A study of Mus musculus with 20 samples.

Results

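The genes described here encode the subunits of the receptors for GABA, glycine and glutamate, measured by RNA sequencing in hypothalamus slices of mice. Earlier results of these data were known when they were chosen. The rule went by gene symbol, taking the protein-coding genes of the Gabr, Gabbr, Glra and Glrb, Gria, Grin, Grik, Grid and Grm families. The rule found 52 genes among the 55471 in the count table: 19 subunits of GABA-A receptors (the Gabrr genes included), 2 of GABA-B receptors, 5 of glycine receptors, 4 of AMPA, 7 of NMDA and 5 of kainate receptors, 2 delta receptors and 8 metabotropic glutamate receptors (mGlu). All mice were wild type C57BL/6. The control group, fed a control diet ad libitum, comprised 7 libraries. A diet with risperidone was given ad libitum in the second group (7 libraries) and by pair-feeding, that is, in a limited amount, in the third (6 libraries). Both risperidone groups had the diet for 4 weeks. Risperidone, an atypical antipsychotic, acts chiefly by blocking dopamine and serotonin receptors, and the title of the series concerns the weight gain it causes. The labels give no pair-fed group on control diet, so pair-feeding and the drug cannot be told apart in the comparison of pair-fed mice with controls. The labels add that body weight was no different from that on control diet, without saying clearly for which feeding condition. Sex, age and dose are not given in the labels. Each library was taken as 1 sample. Whether each stems from a different mouse is not in the labels, so the p-values reflect only how far these samples spread, and some of that spread may be technical.

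GABA and glycine inhibit neurons, and glutamate excites them. GABA-A, glycine, AMPA, NMDA and kainate receptors are ion channels assembled from several subunits, so that the choice of subunit sets where the channel sits and how it responds, whereas GABA-B and metabotropic glutamate receptors act through G proteins. In the hypothalamus GABA and glutamate are the main fast transmitters, and neurons that control feeding release one or the other alongside their peptides. The epsilon and theta subunits of the GABA-A receptor are known for a narrow distribution in the brain that includes the hypothalamus.

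Total counts were between 17316043 and 18606543 in 19 libraries, and risperidone ad libitum library 3 had 9748005. Ad libitum library 1 stood apart by markers of cortex, hippocampus and amygdala. The summed level of its 12 markers was 1603 CPM (counts scaled to depth, scaled with the TMM method of edgeR) there, against 337.9 to 431.2 in the ad libitum libraries other than 1 and 3, 336.0 to 402.4 in control and 307.8 to 372.4 in pair-fed libraries. Slc17a7, which loads glutamate into vesicles in cortical neurons, had 698.9 CPM in that library, 55.1 in ad libitum library 2, 23.4 in ad libitum library 5 and at most 14.9 in the others. Library 3 stood apart from its group over all genes. Its 6 pairs with other ad libitum libraries gave a chi-square per degree of freedom of 244 to 326, where no other pair within a group exceeded 47.8, and its TMM factor was 0.731 against 0.940 to 1.05 elsewhere. Log2 differences of members that involve the ad libitum group are therefore also given without its libraries 1 and 3 where they moved by 0.05 or more. The 21 hypothalamus markers were detected in every library, none of them at 0. Their summed level was 991.3 to 1390 CPM in control, 587.5 to 1201 in ad libitum (lowest in library 1) and 688.4 to 1248 in pair-fed libraries.

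The most abundant member per exon length was Gabbr1, the subunit of the GABA-B receptor that binds GABA, with 111 ± 2.70 RPKM (reads per kilobase of exon, scaled like CPM, mean ± SD) in the 7 control libraries. Gria1, an AMPA receptor subunit, followed with 85.3 ± 3.07 RPKM. Gabbr2, the partner of Gabbr1 that couples to the G protein, had 41.0 ± 2.01 RPKM, and Glrb, the beta subunit that anchors glycine receptors, 38.9 ± 1.60, within each other's spread. Of the GABA-A subunit genes Gabra3 had 31.9 ± 1.64 RPKM, Gabrq 26.1 ± 1.85 and Gabre 11.4 ± 0.513. Among NMDA subunits the obligatory Grin1 was highest at 26.7 ± 1.38 RPKM, and among kainate subunits Grik5, which forms channels only with other subunits, at 34.0 ± 1.39. The delta receptor gene Grid1 had 15.8 ± 0.667 RPKM. Grm7 and Grm5 were level at the top of the metabotropic receptors, with 10.6 ± 0.390 and 10.6 ± 0.731 RPKM. At the low end, 5 members had too few counts to be tested: Gabra6, Gabrp, Gabrr1, Gabrr3 and Grm6, with at most 9 counts in any library. Gabra6, known from cerebellar granule cells, had 0 counts in 16 of the 20 libraries and at most 1 count elsewhere. Grm6, known from the retina, had 0 counts in 10 libraries and at most 3. The other 47 members were tested.

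**Figure D1:**
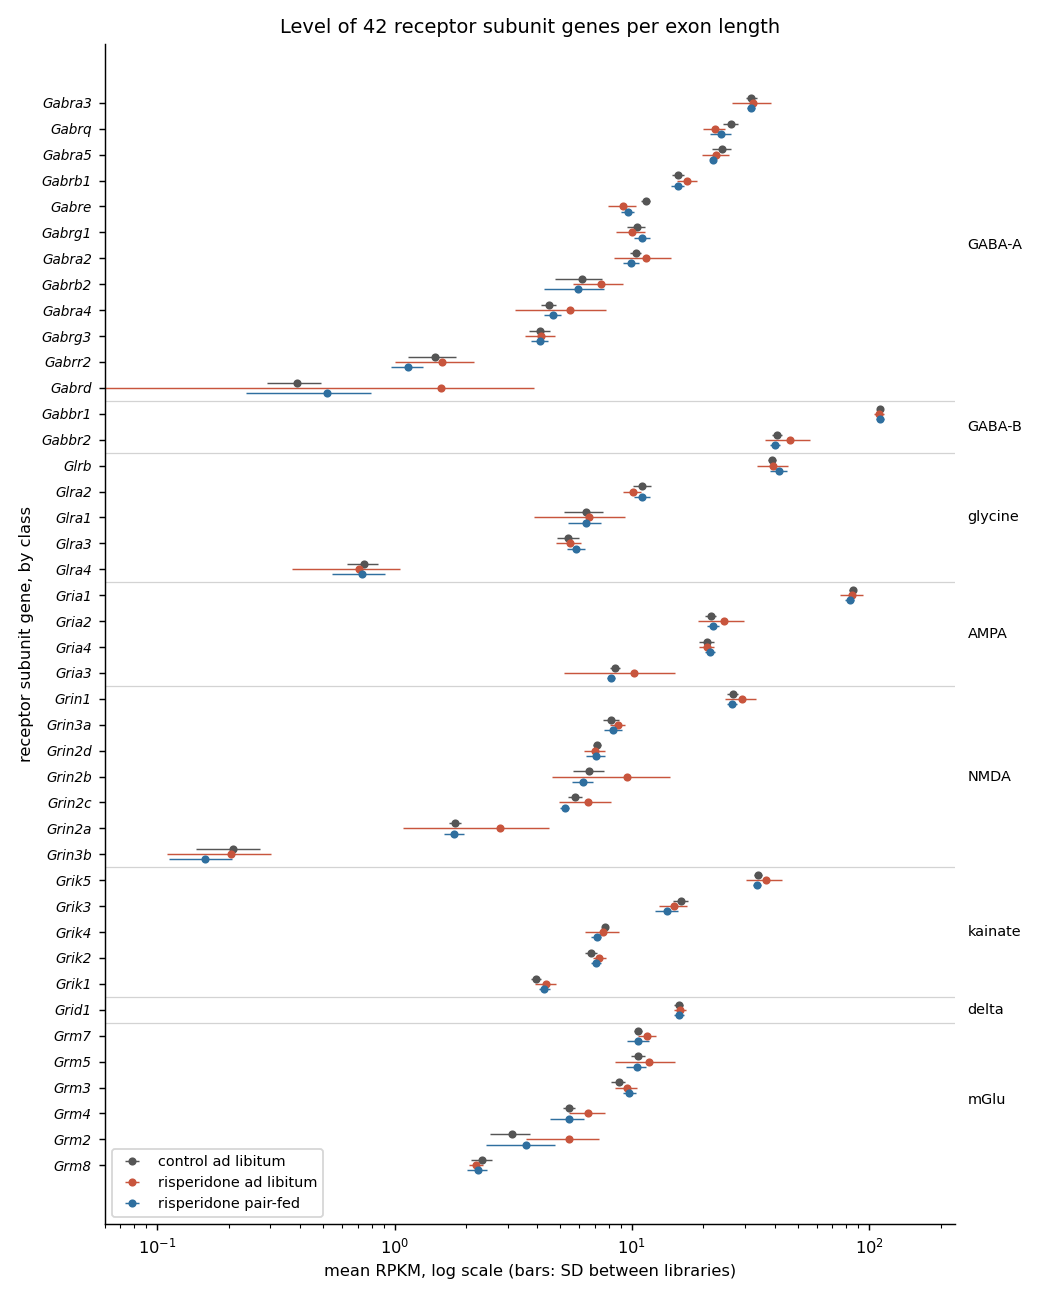
Mean level of 42 tested receptor subunit genes in RPKM (horizontal axis, log scale) in the 3 groups, ordered by control level within each class. Bars are the SD between 7, 7 and 6 libraries, and the bar of Gabrd in the ad libitum group runs past the left end of the axis. Gabbr1 and Gria1 lie highest, Grin3b lowest, and the widest bars belong to the ad libitum group.

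Within each receptor type the make-up was read from the shares of the summed RPKM. Of the GABA-A alpha subunits in control, Gabra3 made up 29.3% ± 0.358 (SD, n = 7), Gabra5 22.0% ± 1.38, Gabra2 9.56% ± 0.605 and Gabra4 4.12% ± 0.184. Gabrb1 held 25.4% ± 0.560 of the beta subunits, and Gabrg1 25.7% ± 0.971 of the gamma subunits. Gria1 was 62.7% ± 0.770 of AMPA subunits, and Gria2, the subunit that keeps calcium out of the channel, 15.8% ± 0.386. The GluN2 subunits, which set how long NMDA channels stay open, were spread over Grin2d (33.5% ± 1.41), Grin2b (30.9% ± 2.55), Grin2c (27.1% ± 1.87) and Grin2a (8.48% ± 0.611). These shares depend on the exon length used: on the longest coding transcript Gabra3 came to 24.3% of the alpha subunits.

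Of the 47 tested members, 1 passed the test in any of the 4 comparisons: Gabre, the epsilon subunit of the GABA-A receptor, which fell in both risperidone groups pooled with equal weight against control. In that comparison 0.307% of the 17893 genes tested were called lower at an adjusted p under 0.05. The test was edgeR's quasi-likelihood F test with Benjamini-Hochberg adjustment over all genes. In the same fit 7 members had an unadjusted p under 0.05, beside 7.82% of all genes. Leaving out ad libitum libraries 1 and 3 gave 11 members, beside 2184 of 17978 genes. For ad libitum risperidone against control 0 members passed and 0.0615% of all genes did. At an unadjusted p under 0.05 there were 11 members, 9 higher and 2 lower, where all genes gave 13.1% in all, 7.14% higher and 5.97% lower. The 9 higher members became 5 without ad libitum libraries 1 and 3, 5 without control library 4, and 15 without ad libitum library 5. In either direction these fits gave 8, 8 and 17 members, beside 2247 of 17978, 1824 of 17832 and 2674 of 17828 genes. With all libraries DESeq2 called 3 members in this comparison (Gabre, Gabrd and Grm2), beside 0.614% of the genes to which it gave an adjusted p. There limma-voom called 1 (Gabre) beside 0.285%. For pair-fed risperidone against control 0 members passed, beside 0.486% of all genes, with 3 at an unadjusted p under 0.05 beside 6.66% of all genes. These 3 became 9 without ad libitum libraries 1 and 3, which share in the estimate of the spread, beside 2027 of 17978 genes. They became 7 without ad libitum library 1 and 5 without library 3, beside 1620 of 17851 and 1462 of 17833 genes. Without pair-fed library 3 there was 1 member, beside 1039 of 18043 genes. DESeq2 called 0 members in that comparison beside 0.665% of genes, and limma-voom 1 (Gabre) beside 1.25%. Between pair-fed and ad libitum risperidone 0 members passed, beside 0.397% of all genes. There 9 members had an unadjusted p under 0.05, each of them lower in pair-fed libraries. In that direction 7.44% of all genes had one. Without ad libitum library 5 there were 14 such members, beside 2924 of 17828 genes in either direction. DESeq2 and limma-voom, with all libraries, called 0 members between the risperidone groups, beside 0.887% and 0.777% of genes. The comparisons against control share the 7 control libraries.

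The sizes were small for most members. The median log2 difference from control over the 47 members was 0.06 in the ad libitum group and -0.01 in the pair-fed group, beside 0.01 and 0.00 over all genes. Without ad libitum libraries 1 and 3 the ad libitum median was 0.02. The 95% interval of the difference lay within 0.5 on the log2 scale to either side of 0 for 37 of 47 members in the ad libitum group and for 42 of 47 in the pair-fed group. For the abundant Gabbr1 it ran from -0.08 to 0.08 in both groups. For Gria1 it ran from -0.12 to 0.11 in the ad libitum group (-0.15 to 0.02 without libraries 1 and 3) and from -0.16 to 0.08 in the pair-fed group.

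**Figure D2:**
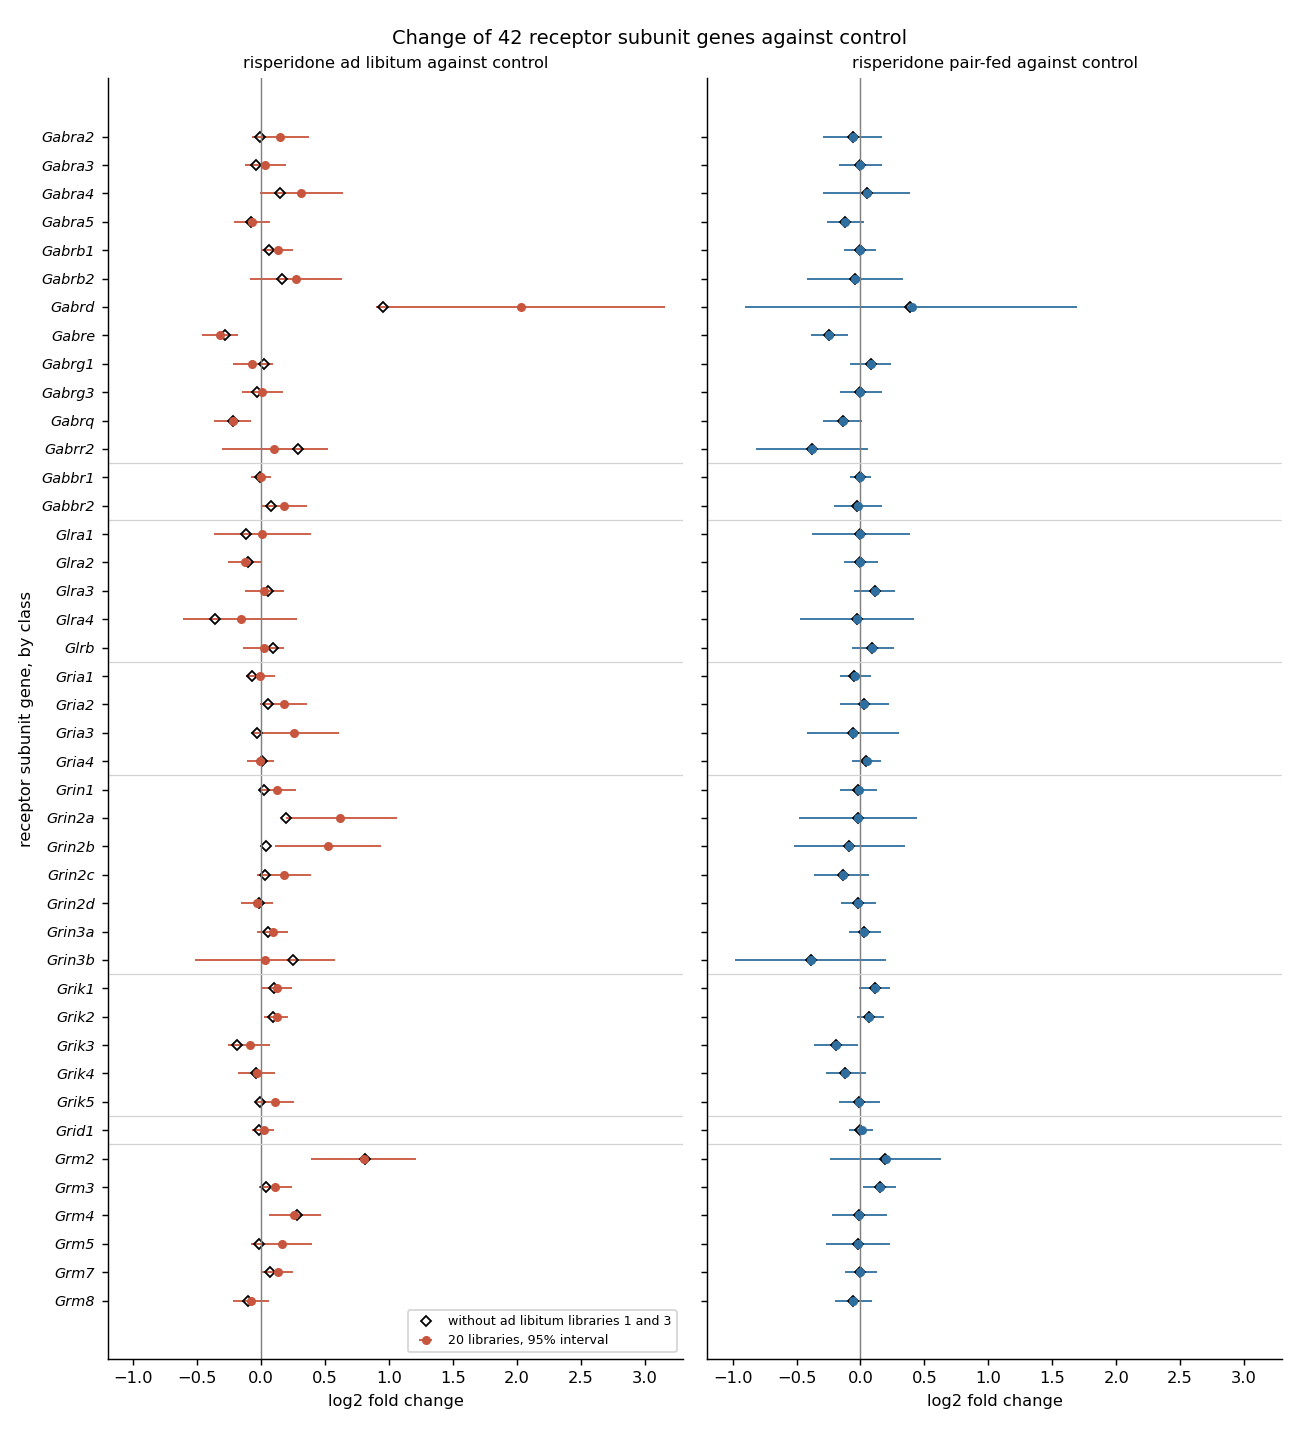
Log2 fold change against control (horizontal axis) of 42 tested members in ad libitum (left) and pair-fed risperidone libraries (right), with 95% intervals from all 20 libraries as filled points and the value without ad libitum libraries 1 and 3 as open diamonds. Most intervals cover 0, Gabre lies to the left in both panels, and Gabrd, Grin2a and Grin2b move towards 0 in the left panel when both libraries are left out.

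Gabre had the clearest separation. Its level was lowest 50.6, median 53.3 and highest 56.6 CPM in the control libraries. In the ad libitum libraries the values were 35.0, 45.5 and 50.1 CPM, and in the pair-fed libraries 41.6, 46.6 and 48.8 CPM. Every one of the 13 risperidone libraries thus lay below every control library, although the gap between the highest ad libitum and the lowest control library was narrow. Of the 17893 genes 11 had this pattern, or 0.0615%, and Gabre was the 1 receptor gene among them. Taken apart, 0.224% of all genes lay below control without overlap in the ad libitum group and 0.861% in the pair-fed group. In the mean of both risperidone groups the log2 change was -0.28 (SE 0.0585, 95% interval -0.40 to -0.16, adjusted p = 0.030 in edgeR). For each group by itself the log2 difference from control was -0.32 (SE 0.0676, adjusted p = 0.0736) in the ad libitum group and -0.25 (SE 0.0699, adjusted p = 0.191) in the pair-fed group, and neither passed. Between pair-fed and ad libitum libraries the log2 difference of Gabre was 0.07 (95% interval -0.08 to 0.21, adjusted p = 0.702), which is not a detectable difference at this number of samples.

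Leaving out ad libitum libraries 1 and 3 brought Gabre past the threshold in each comparison with control, with log2 changes of -0.28 (adjusted p = 0.0382) in the ad libitum, -0.25 (adjusted p = 0.0198) in the pair-fed and -0.27 (adjusted p = 0.00456) in the combined comparison, all in edgeR. Of all genes 0.267%, 1.39% and 1.07% were called in these 3 fits. The call in the combined comparison was lost on leaving out single libraries, while the log2 value stayed between -0.30 and -0.26. The adjusted p was 0.0578, 0.0821, 0.0954, 0.0644, 0.0705 and 0.0869 in edgeR without control library 2, 3, 4, 5, 6 or 7. It was 0.0539 without ad libitum library 7, and 0.0605, 0.0549 and 0.0560 without pair-fed library 1, 2 or 4. The hypothalamus markers also moved: 18 of 21 were lower in the ad libitum group (median log2 difference -0.34, and -0.28 without libraries 1 and 3) and 14 of 21 in the pair-fed group (median -0.18), none past the threshold. Markers of ependymal cells and tanycytes were lower for 10 of 10 genes in the ad libitum group (median -0.30, and -0.24 without libraries 1 and 3) and for 7 of 10 in the pair-fed group (median -0.02), where 1 passed. Oligodendrocyte markers were higher for 10 of 10 genes in both groups, with medians of 0.12 (0.32 without libraries 1 and 3) and 0.15 and none past the threshold. Of all 17893 genes 8428 were lower and 9465 higher in the ad libitum group. In the pair-fed group 8686 were lower and 9207 higher. The part of the cell types behind these markers in the Gabre result was not tested. In such bulk tissue, fewer cells that express a gene and less RNA per cell cannot be told apart.

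Gabre lies on the minus strand of the X chromosome (chrX:72255999-72274803, GRCm38) in a cluster with Gabra3 (chrX:72432681-72656848, minus strand), which encodes the alpha3 subunit, and Gabrq (chrX:72825178-72842602, plus strand), which encodes the theta subunit. Gabrq had a lowest, median and highest level of 132.5, 136 and 161 CPM in control, 101, 115 and 135 CPM in ad libitum, and 105, 130.4 and 141 CPM in pair-fed libraries. All 7 ad libitum libraries were below the control mean and so were 5 of 6 pair-fed libraries, but the groups overlapped. The log2 difference of Gabrq from control was -0.22 (SE 0.0681, adjusted p = 0.193) in the ad libitum group and -0.14 (SE 0.0707, adjusted p = 0.781) in the pair-fed group in edgeR, so that Gabrq did not pass. Gabra3, between them, differed by 0.03 (95% interval -0.13 to 0.19) and 0.00 (-0.17 to 0.17) on the log2 scale, and by -0.04 in the ad libitum group without libraries 1 and 3. In the ad libitum library 1 Gabra3 had 178 CPM, the highest of the 20 libraries, and Gabre and Gabrq their lowest values of 35.0 and 101 CPM. Gabre made up 4.56% ± 0.271 of the summed RPKM of GABA-A subunits in control (SD, n = 7), 3.75% ± 0.835 in ad libitum (n = 7) and 3.93% ± 0.242 in pair-fed libraries (n = 6).

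**Figure D3:**
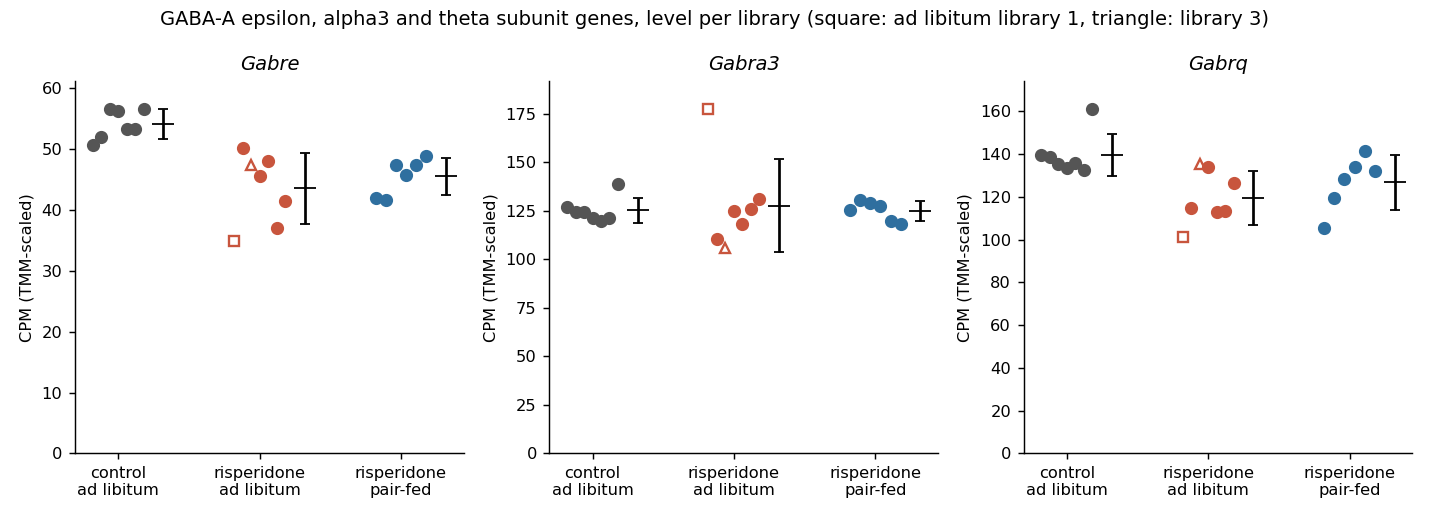
Level of the epsilon (Gabre), alpha3 (Gabra3) and theta (Gabrq) subunit genes of the X chromosome in each library, in CPM from 0, by group, with the mean and SD beside the points. The 13 risperidone libraries lie below all control libraries for Gabre, overlap with them for Gabrq, and Gabra3 shows no such order.

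The upstream sequences of Gabre and Gabrq are shown because these are the members of the cluster with the lowest values relative to control. They are the 250 bases before the RefSeq gene starts in GRCm38.p6, read 5′ to 3′ on the strand of the gene, at chrX:72274722-72274971 (minus strand) for Gabre and chrX:72824928-72825177 (plus strand) for Gabrq. The Gabre start differs between the annotations, so that the last 82 bases of its window lie inside the GENCODE gene span given above, and 0 bases do for Gabrq. Capitals mark matches on either strand to the GC box (GGGCGG), a motif bound by Sp1 family factors, and to the CCAAT box (CCAAT).
Gabre: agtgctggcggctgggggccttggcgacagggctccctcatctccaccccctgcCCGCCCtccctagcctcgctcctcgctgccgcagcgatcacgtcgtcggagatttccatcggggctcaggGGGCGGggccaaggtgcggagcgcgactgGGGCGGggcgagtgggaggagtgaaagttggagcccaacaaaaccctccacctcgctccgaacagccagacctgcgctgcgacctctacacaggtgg
Gabrq: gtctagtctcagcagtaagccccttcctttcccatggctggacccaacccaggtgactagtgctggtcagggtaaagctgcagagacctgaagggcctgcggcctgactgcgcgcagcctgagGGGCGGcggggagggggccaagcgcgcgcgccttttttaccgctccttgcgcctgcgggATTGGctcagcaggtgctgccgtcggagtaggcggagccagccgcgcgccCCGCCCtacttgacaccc

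The Gabre window held 3 GC boxes and no CCAAT box, and the Gabrq window 2 GC boxes and 1 CCAAT box, with GC contents of 68.8% and 67.2%. Over the 32851 RefSeq windows of the same length 32.7% held a GC box and 33.8% a CCAAT box. Among the 43 such windows of members the shares were higher, 48.8% for the GC box and 41.9% for the CCAAT box. A TATA box (TATAAA), a cAMP response element (TGACGTCA) and an E-box (CACGTG) were searched on both strands with no match in either window, and 12.4%, 1.55% and 6.02% of all windows held them. No searched motif overlapped another in these windows. A match is a run of letters and not a site shown to be used.

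Among the other GABA-A subunits, Gabrd, the delta subunit of receptors outside synapses, had the largest difference by size. Its lowest, median and highest levels were 0.681, 1.12 and 1.47 CPM in control, 1.02, 2.36 and 19.3 CPM in ad libitum and 0.835, 1.22 and 2.96 CPM in pair-fed libraries. The highest value belonged to ad libitum library 1, and the groups overlapped. The log2 difference from control was 2.03 (SE 0.545, adjusted p = 0.158 in edgeR) in the ad libitum group. With libraries 1 and 3 of that group left out it was 0.95 (SE 0.293, adjusted p = 0.159). Without library 2 as well, an alternative chosen after seeing the data, it was 0.89 (adjusted p = 0.305). Between pair-fed and ad libitum libraries the log2 difference of Gabrd was -1.63 (SE 0.553, adjusted p = 0.217 in edgeR). Without ad libitum libraries 1 and 3 that difference was -0.56 (adjusted p = 0.524). Gabrr2, a rho subunit best known from the retina, had a log2 difference of -0.38 (SE 0.212, adjusted p = 0.826) in the pair-fed group against control and of -0.48 (SE 0.214, adjusted p = 0.333) against the ad libitum group, at 2.37 CPM as the pair-fed median. Against the ad libitum group without libraries 1 and 3 it was -0.67 (adjusted p = 0.0796).

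Gabra5, whose subunit is mostly found outside synapses, had a log2 difference of -0.07 in the ad libitum and -0.12 (SE 0.0713, adjusted p = 0.870 in edgeR) in the pair-fed group. Gabrb1 had 0.13 (SE 0.0570, adjusted p = 0.326) in the ad libitum group, and 0.06 without libraries 1 and 3. Gabrg1, a gamma subunit, was 0.15 (SE 0.0779, adjusted p = 0.408) higher in pair-fed than in ad libitum libraries on the log2 scale, and 0.06 higher without libraries 1 and 3.

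Of the GABA-B genes, Gabbr1 had a log2 difference of 0.00 in both groups. Gabbr2 was 0.20 lower in pair-fed than in ad libitum libraries on the log2 scale (SE 0.0917, adjusted p = 0.345 in edgeR), and 0.10 lower without libraries 1 and 3. Its level in ad libitum library 1 was 454 CPM, against 259 to 321 in the other ad libitum libraries. The 5 glycine receptor genes had log2 differences between -0.16 and 0.02 in the ad libitum and between -0.03 and 0.11 in the pair-fed group. Without libraries 1 and 3 the ad libitum differences ran from -0.36 for Glra4 to 0.09 for Glrb. Glra2, an alpha subunit known from the developing nervous system, had -0.13 (SE 0.0633, adjusted p = 0.396) in the ad libitum group, and was 0.13 higher in pair-fed than in ad libitum libraries (SE 0.0658, adjusted p = 0.393). In the pair-fed group Glra3 had 0.11 (SE 0.0779, adjusted p = 0.895) and Glrb 0.09 (SE 0.0799, adjusted p = 0.943).

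Among NMDA receptor genes, Grin2b, whose subunit is typical of forebrain and of young synapses, had a lowest, median and highest level of 140, 152 and 201 CPM in control, 151, 178 and 475 CPM in ad libitum, and 129, 155 and 179 CPM in pair-fed libraries. Grin2a, whose subunit is typical of mature forebrain synapses, had 28.7, 32.3 and 34.2 CPM in control, 31.1, 39.1 and 118 CPM in ad libitum, and 28.1, 32.6 and 35.5 CPM in pair-fed libraries. For both genes ad libitum library 1 was the highest and library 3 the next, and the groups overlapped. The log2 difference of Grin2b from control was 0.52 (SE 0.201, adjusted p = 0.288 in edgeR) in the ad libitum group and 0.04 (adjusted p = 0.901) without both libraries. For Grin2a the values were 0.62 (SE 0.211, adjusted p = 0.239) and 0.19 (adjusted p = 0.254). In the pair-fed group against control they were -0.09 for Grin2b and -0.02 for Grin2a.

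Between the risperidone groups the smallest p among members belonged to Grin2c, whose subunit is best known from cerebellum. Its lowest, median and highest levels were 25.3, 29.9 and 31.2 CPM in control, 26.9, 31.1 and 50.9 CPM in ad libitum, and 24.7, 26.5 and 27.9 CPM in pair-fed libraries. All 6 pair-fed libraries lay below the ad libitum mean, and pair-fed libraries 2 and 6 lay above the lowest ad libitum library. The log2 difference between pair-fed and ad libitum libraries was -0.32 (SE 0.105, adjusted p = 0.204 in edgeR), and -0.18 (adjusted p = 0.202) without libraries 1 and 3. Grin2a and Grin2b stood at -0.64 (SE 0.221, adjusted p = 0.226) and -0.61 (SE 0.211, adjusted p = 0.224) in that comparison, and at -0.20 and -0.13 without both libraries. Among AMPA subunits Gria3 reached 212 CPM in ad libitum library 1 against 75.3 to 86.0 CPM in the other 6 ad libitum libraries. Its difference from control in that group was 0.26 on the log2 scale, and -0.03 without both libraries.

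**Figure D4:**
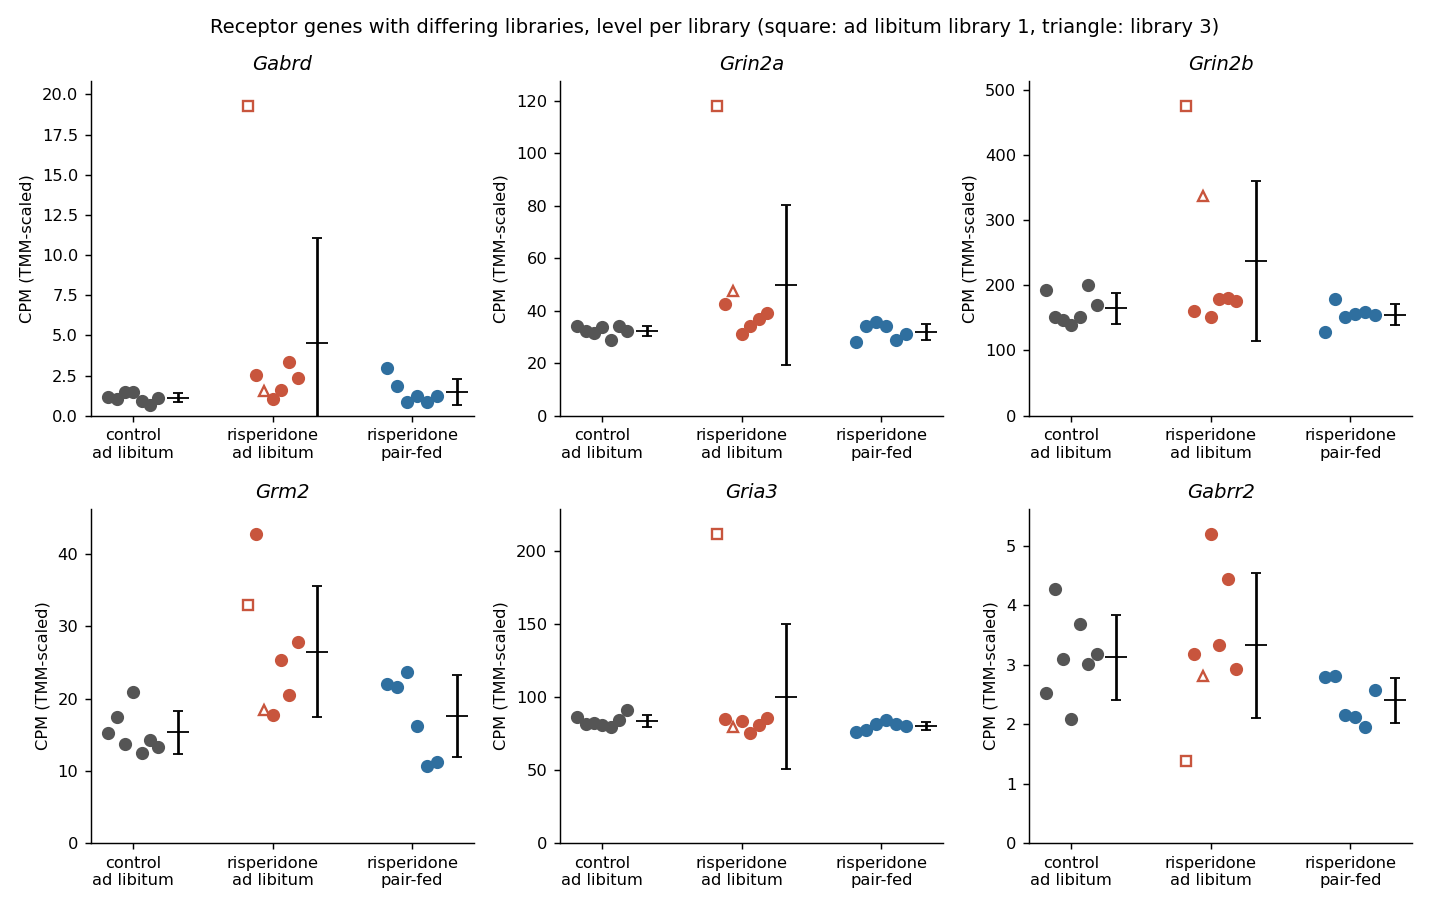
Level in each library, in CPM from 0, of 6 members with libraries that stand apart, by group, with mean and SD (the lower SD bar of Gabrd in the ad libitum group runs below 0). The open square, ad libitum library 1, is the highest point for Gabrd, Grin2a, Grin2b and Gria3, the next highest for Grm2 and the lowest for Gabrr2.

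Among kainate receptor genes, Grik3 had a lowest, median and highest level of 127, 146 and 159 CPM in control, 110.3, 140.0 and 158 CPM in ad libitum, and 105, 132 and 140 CPM in pair-fed libraries. All 6 pair-fed libraries lay below the control mean, and the groups overlapped. The log2 difference of Grik3 was -0.19 (SE 0.0827, adjusted p = 0.682 in edgeR) in the pair-fed group and -0.09 (SE 0.0795, adjusted p = 0.649) in the ad libitum group, or -0.14 (SE 0.0693, adjusted p = 0.640) for the mean of both. Without ad libitum libraries 1 and 3 the Grik3 difference was -0.19 in the ad libitum group (adjusted p = 0.267) and -0.19 for the mean (adjusted p = 0.147). Grik1 and Grik2, which form channels by themselves, had 0.12 (SE 0.0490, adjusted p = 0.538) and 0.10 (SE 0.0412, adjusted p = 0.562) for the mean of both groups, with 12 and 11 of 13 risperidone libraries above the control mean. Grik4 had -0.03 in the ad libitum and -0.12 in the pair-fed group. Grik5 had 0.11 in the ad libitum group, -0.01 there without libraries 1 and 3, and -0.01 in the pair-fed group. The delta receptor gene Grid1, whose protein binds cerebellins at synapses, had a log2 difference from control of 0.02 with ad libitum feeding (95% interval -0.07 to 0.10), and of 0.01 with pair-feeding (95% interval -0.09 to 0.10).

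Of the metabotropic receptors, Grm2, a receptor on axon terminals that limits glutamate release, had the smallest p in the ad libitum group after Gabre. Its lowest, median and highest levels were 12.4, 14.3 and 20.9 CPM in control, 17.8, 25.3 and 42.8 CPM in ad libitum, and 10.7, 19.0 and 23.7 CPM in pair-fed libraries. All 7 ad libitum libraries lay above the control mean. Control library 4, at 20.9 CPM, lay above ad libitum libraries 3, 4 and 6, at 18.5, 17.8 and 20.5 CPM. The log2 difference from control was 0.80 (SE 0.199, adjusted p = 0.131 in edgeR) in the ad libitum and 0.20 (SE 0.209, adjusted p = 0.970) in the pair-fed group, and the pair-fed group was 0.60 lower than the ad libitum group (SE 0.206, adjusted p = 0.217). Leaving out libraries 1 and 3 gave 0.81 in the ad libitum group (adjusted p = 0.0766). Of these, library 1 lay above and library 3 below the median of 25.3 CPM of the other 5 ad libitum libraries, at 32.9 and 18.5 CPM. Without library 2, which had the highest level, as well it was 0.57 (adjusted p = 0.245). Markers of cortex, hippocampus and amygdala also differed in the ad libitum group. Of the 11 tested 10 were higher, with a median log2 difference of 1.38, and 0.41 without libraries 1 and 3. Their summed level was 1603 CPM in ad libitum library 1, 431.2 in library 2 and 355.9 in library 3. Of 12 thalamus markers 10 were also higher in the ad libitum group, none past the threshold. Their median log2 difference was 0.18, and 0.23 without libraries 1 and 3. Gabrd, Grin2a and Grin2b were highest in library 1, but Grm2 in library 2, and Grin2b had 337 CPM in library 3. The part of these markers in the values of Grm2, Gabrd, Grin2a and Grin2b was not tested beyond leaving libraries out. Reads of Grm2 cannot be told from those of Gm28111, which overlaps its exons on the opposite strand, because no source used here gives the strand setting of the counting.

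Grm3, a receptor known from astrocytes and neurons, had a level between 25.01 and 29.3 CPM (median 26.8) in control, between 24.7 and 33.9 (median 28.6) in ad libitum, and between 27.5 and 32.7 (median 29.5) in pair-fed libraries. All 6 pair-fed libraries lay above the control mean, and the groups overlapped. The log2 difference was 0.15 (SE 0.0632, adjusted p = 0.618 in edgeR) in the pair-fed group. Grm4, another receptor on axon terminals, had 0.26 (SE 0.0991, adjusted p = 0.283) in the ad libitum group, with 6 of 7 libraries above the control mean, and was 0.27 lower in pair-fed than in ad libitum libraries (SE 0.103, adjusted p = 0.288). Grm7 had 0.13 (SE 0.0597, adjusted p = 0.369), and 0.07 without libraries 1 and 3, and Grm8 -0.08 (SE 0.0679, adjusted p = 0.634) in the ad libitum group. Grm5, a receptor that couples to calcium release, had 0.16 in the ad libitum group, and -0.02 without libraries 1 and 3.

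**Figure D5:**
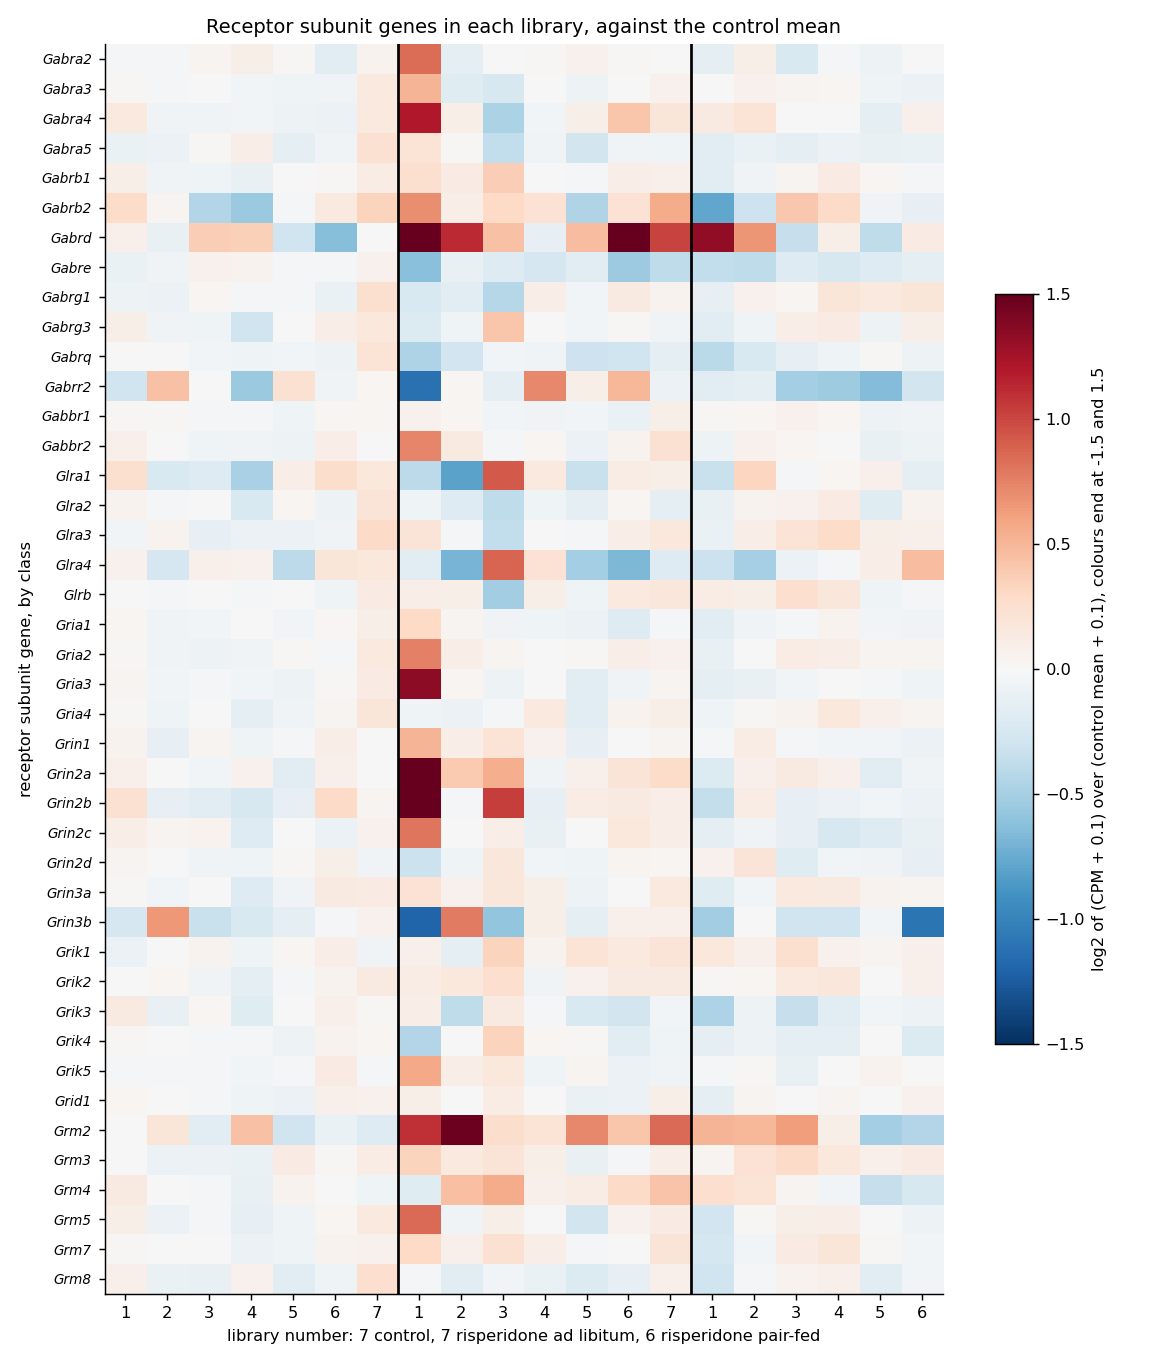
Log2 ratio of the level of 42 tested members in each of the 20 libraries to the control mean (colour scale, ending at -1.5 and 1.5), with a line between the groups. The first ad libitum column is red for many members, among them Gabra4, Gria3, Grin2a and Grin2b, and the row of Gabre is blue in all 13 risperidone columns.

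Counted over all members, ad libitum library 1 lay above the highest of the ad libitum libraries other than 1 and 3 for 27 of 47 members, beside 30.4% of all genes, and below the lowest of them for 10, beside 29.2%. It was at least 2-fold above their median for 5 members, beside 2.51% of all genes: Gabrd (8.17-fold), Grin2a (3.19-fold), Grin2b (2.70-fold), Gria3 (2.52-fold) and Gabra4 (2.17-fold). Library 3 lay above the others for 20 of 47 members beside 32.9% of all genes, and below for 12 beside 31.7%. Its highest ratios were 2.77-fold for Glra4, 1.91-fold for Grin2b and 1.79-fold for Glra1. The share of Grin2b among the GluN2 genes was 46.1% in library 1 and 44.7% in library 3. It was 31.3% ± 1.23 in the ad libitum libraries other than 1 and 3 (SD, n = 5) and 30.9% ± 2.55 in control. That of Grin2d was 13.7% in library 1 and 26.3% in library 3, against 32.3% ± 1.24 in the ad libitum libraries other than these.

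Genes that make, move or anchor these transmitters and receptors were read as 6 lists. Of the 12 tested genes for GABA and glycine synthesis and transport 0 passed in any comparison, and Slc6a12, a betaine and GABA transporter, had the smallest p, with a log2 difference of -1.45 (SE 0.432, adjusted p = 0.189 in edgeR) in the ad libitum group. Gad1, which makes GABA, had 332 ± 17.0 CPM in control, 309 ± 20.2 in ad libitum and 328 ± 16.6 in pair-fed libraries (SD). Among the 14 genes for glutamate synthesis and transport 1 passed. Glul, the glutamine synthetase of astrocytes, had a lowest and highest level of 1422 and 1505 CPM in control, 1428 and 1611 in ad libitum, and 1121 and 1297 in pair-fed libraries, so that the pair-fed group lay below both others without overlap. Glul fell by 0.25 on the log2 scale in pair-fed libraries against control (SE 0.0441, adjusted p = 0.00447) and by 0.30 against the ad libitum group (SE 0.0441, adjusted p = 0.00121). No member showed such a separation of the pair-fed group from both others. Of all genes 0.861% lay below control without overlap in the pair-fed group. The share that lay below both other groups was not counted, so no conclusion is drawn from this absence. Of the 17 tested genes of inhibitory scaffolds and auxiliary subunits, the 16 AMPA auxiliary subunits, the 7 auxiliary genes of kainate and delta receptors and the 26 genes of the excitatory scaffold, 0 passed in any comparison. In the ad libitum group 25 of the 26 excitatory scaffold genes and 15 of the 16 AMPA auxiliary subunits were higher than control. Of all 17893 genes 9465 were higher there. The list medians were 0.17 and 0.13 on the log2 scale, and 0.02 and 0.03 without libraries 1 and 3. In the pair-fed group 9 and 8 genes of these lists were higher than control, beside 9207 of all genes.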

How the data were processed

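RNA from 20 hypothalamus slices was sequenced as 150 bp paired-end reads, per the labels' protocols. The authors deposited 1 table of unnormalized read counts per gene. STAR, featureCounts and DESeq2, with the builds GRCm38 and mm10, are named per the submitters' processing notes. Not given in the sources used here are versions, annotation release, strand setting and filters. Of 55471 genes, 241 had no match in the GENCODE annotation of GRCm38. Exons of 15 members overlap a gene on the opposite strand (among them Gabra4, Gabra5, Gabrb1, Gabrr3, Glra1, Grin1, Grin2b, Grin2c, Grin2d, Grin3b, Grm2, Grm6 and Grm7), and their counts are uncertain to that extent.

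Counts were tested in edgeR 4.0.16 (R 4.3.3) by its two-sided quasi-likelihood test, with TMM scaling, filterByExpr at a minimum count of 10 and 1 coefficient per group over the 20 libraries (17893 genes, biological coefficient of variation 11.26%). A gene was called at a Benjamini-Hochberg adjusted p under 0.05 over all genes tested. The script was tested on simulated data with known changes. CPM are TMM-scaled, and RPKM use the union of a gene's exons. Total counts limit the precision of low genes, and ad libitum library 3 had the fewest. Other settings were DESeq2 1.42.0, voom in limma 3.58.1, other scalings and filters, the groups compared alone, a replicate block and libraries left out, 32 in all. Library pairs of 1 group were compared by chi-square over genes with at least 20 counts. The lowest value per degree of freedom among 57 pairs was 2.64 and the highest 326. Separately prepared libraries of the same mouse can also differ, so these values cannot show whether any libraries share a mouse. Each library was counted once. RefSeq promoters were matched by symbol for 36 of the 52 members.

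The members and gene lists were chosen with earlier results of these data known. The genes named are members past the threshold and the 5 with the smallest p in each direction of each comparison, with levels per library for the 3 with the smallest p. The most abundant of each class, partner genes past the threshold and up to 2 per partner list with the smallest p were added where a result turned on them. Gria3, Grin2a, Grin2b, Gabrr2, Gad1 and the members named for library 1 or 3 were described after their values were seen. The values of 5 tested members are not reported here by gene, although counts over all members include them.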

Additional observations from a re-analysis of the deposited data

Results flagged for a closer look

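In 24 of the 126 sets of libraries examined (42 members in 3 groups), 1 library lay apart from the rest of its group, by a gap that took up more of the group's range than Dixon's test allows at 95%. Chance gives about 1 in 20 such sets, and libraries that stand apart over many genes add to them. All levels are in CPM.

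Ad libitum library 1 was apart for 11 members, always above the other ad libitum libraries. Its levels were 454 for Gabbr2 (others 259 to 321), 141 for Gabra2 (71.8 to 83.0), 178 for Gabra3 (106 to 131) and 63.1 for Gabra4 (19.6 to 36.5). They were 19.3 for Gabrd (1.02 to 3.37), 566 for Gria2 (332 to 360.0), 212 for Gria3 (75.3 to 86.0), 260 for Grik5 (166 to 195), 118 for Grin2a (31.1 to 47.3), 50.9 for Grin2c (26.9 to 32.4) and 196 for Grm5 (89.7 to 119).

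Ad libitum library 3 was apart for 3 members, above the others for Gabrg3 at 65.2 (42.5 to 49.6) and Glra1 at 29.3 (8.76 to 17.1), and below them for Glrb at 126 (173 to 204).

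Control library 7 was apart for 6 members and above the other control libraries for each: Gabra3 at 139 (120 to 127), Gabrg1 at 97.2 (77.1 to 84.2), Gabrq at 161 (133 to 140), Glra3 at 60.7 (45.8 to 51.5), Glrb at 197 (173 to 182) and Gria2 at 372 (316 to 339). Single members were apart in 4 other libraries. Grik5 had 192 in control library 6 (others 171 to 174), and Grin3b had 1.14 in control library 2 (0.526 to 0.727). Grid1 had 85.9 in pair-fed library 1 (94.2 to 97.9), and Grin1 had 280 in pair-fed library 2 (244 to 256).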

How the results depend on the processing

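Over 32 other settings, 0 members were called between pair-fed and ad libitum risperidone. For ad libitum risperidone against control, where 0 were called, DESeq2 called 3 (Gabre, adjusted p = 0.00578, Grm2, 0.0266, and Gabrd, 0.0479), limma-voom 1 (Gabre), the fit without ad libitum libraries 1 and 3 called 1 (Gabre), and that without libraries 1, 2 and 3, chosen after seeing the data, 1 (Gabre), beside 0.614%, 0.285%, 0.267% and 0.105% of all genes with an adjusted p. For pair-fed risperidone against control, where 0 were called, 1 member (Gabre) was called with the groups compared alone, in limma-voom, without ad libitum libraries 1 and 3, and without libraries 1, 2 and 3, beside 1.40%, 1.25%, 1.39% and 1.37% of all genes. For the mean of both risperidone groups, where Gabre was called, 0 were called when both were fitted as 1 group (adjusted p = 0.0603). Leaving out 1 library at a time gave 0 calls throughout in the ad libitum comparison, between 0 and 1 in the pair-fed comparison (Gabre, adjusted p = 0.0334 in edgeR without ad libitum library 1) and between 0 and 1 for the mean of both groups. The cause of these shifts was not tested. No log2 value of a called member changed sign. The number of members with a mean of at least 1 RPKM was 44 in each setting with exon length, and 45 on the longest coding transcript.

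Expression gave no clear sign that the replicate numbers pair the samples. Correlations of deviations from the group means in the 19 pairs with the same number ran from -0.19 to 0.325, with 2 over 0.1. Those in the 114 pairs with different numbers ran from -0.332 to 0.433. Such correlations cannot exclude that samples with the same number were handled together. With the replicate block 0 members were called in the ad libitum, the pair-fed and the pair-fed against ad libitum comparison, and 1 for the mean of both groups (Gabre, -0.28, adjusted p = 0.0434 in edgeR). The members with few counts (Gabrd, Gabrr2, Glra4 and Grin3b, with 11, 20, 16 and 3 counts in their lowest library) could show only large differences. The ad libitum libraries limited others: the SE of Grin2a against control was 0.211 with libraries 1 and 3 and 0.0690 without them.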
